A study of Mus musculus with 6 samples.

Results

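This report describes 31 genes of the tricarboxylic acid (TCA) cycle, of anaplerosis and of glutamine metabolism in mRNA-seq libraries of mouse embryonic fibroblast lines. The genes were chosen by name for their known roles, with earlier results of these data known. They were found in the count tables by their NCBI Gene identifiers, among 27179 genes counted. All 31 had at least 60 counts over the 6 libraries, and all 31 passed the filter on low counts that left 14069 genes for testing. By role, 12 encode TCA cycle enzymes of the mitochondrial matrix, 3 encode cytosolic counterparts, 5 encode enzymes that fill or drain the cycle, 6 act on glutamine, glutamate or transamination, and 5 encode mitochondrial carriers.

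The study compared 3 cell lines with 2 libraries each, made from independent RNA preparations, and addressed whether the clock repressors CRY1 and CRY2 affect how cells use glucose. The CPN-/- line lacks functional Cry1, Cry2, Per1, Per2, Nr1d1 and Nr1d2. The CPN-/- CRY1 and CPN-/- CRY2 lines carry the same knockouts and express Cry1 or Cry2 from a virus, and are called the CRY1 line and the CRY2 line below. Each was grown from a single colony selected with blasticidin, so that an effect of the CRY protein and a difference between clones cannot be told apart. The p-values measure the spread between RNA preparations of one culture line, not between clones or animals.

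In the TCA cycle, acetyl groups from pyruvate, fatty acids or amino acids are joined to oxaloacetate by citrate synthase and oxidized stepwise until oxaloacetate is formed again. Anaplerosis refills the cycle, by carboxylation of pyruvate or by entry of glutamate carbon as 2-oxoglutarate, and cataplerosis withdraws intermediates for synthesis. Cultured fibroblasts take up glutamine, and aminotransferases and carriers of the inner membrane link its carbon and nitrogen to the mitochondrial and cytosolic pools.

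The libraries held between 25957409 and 36106949 counts. The fibroblast markers summed to between 11091 and 17751 CPM (counts per 1000000 counts, after TMM scaling) per library. Of these markers, Thy1 had at most 10 counts in every library. The 5 epithelial markers were also at 10 counts or fewer each, as were 3 of 4 endothelial, 4 of 5 blood and 3 of 4 skeletal muscle markers. Of the others, Pecam1 had between 8 and 18 counts, Cd68 between 44 and 65, and Des between 26 and 52. Des was lower in the CRY1 line than in CPN-/- (log2 change −1.13, edgeR adjusted p = 0.027) and Pecam1 lower in the CRY1 line than in the CRY2 line (−1.42, edgeR adjusted p = 0.034). The part of such cells in the results was not tested. Cry1 was at 165 and 190 CPM in the CRY1 line against 115 and 125 in CPN-/-, and Cry2 was at 349 and 351 CPM in the CRY2 line against 129 and 136 in CPN-/-. Counts from the edited genes and from the viral copies cannot be separated in these tables. The 2 CPN-/- libraries differed from each other more than those of the other lines. The SD of the log2 difference between replicates, over tested genes, was 0.44, 0.23 and 0.24 in CPN-/-, the CRY1 line and the CRY2 line. Across those with a known transcript length, the Spearman correlation of this difference with that length was 0.70, −0.20 and 0.29.

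Against CPN-/-, 6 of the 31 genes were called in the CRY1 line and 1 in the CRY2 line, by edgeR's quasi-likelihood test (Benjamini-Hochberg adjusted p under 0.05 over all tested genes). In the CRY1 line, Gpt2, Pck2, Glul and Slc25a10 were lower, and Idh1 and Glud1 were higher. These 6 genes are 19.4% of the members, beside 24.3% of all tested genes called in the same comparison. In the CRY2 line only Glul was called, lower, which is 3.23% of the members beside 6.66% of all tested genes. In this fit neither share was above its background, but the order turned under 8 of 16 alternatives for the CRY1 line and 5 of 16 for the CRY2 line. With DESeq2 the shares were 22.6% of members beside 18.5% of all genes in the CRY1 line, and 9.68% beside 6.42% in the CRY2 line. The DESeq2 shares of all genes are over 19741 genes with at least 1 count, not the 14069 of the edgeR fit above. The same base holds for the filter of at least 1 count, which is also among the 8 and the 5. These 2 alternatives thus set the members beside a wider set of genes, and their order is not on a like base. The median log2 change over the 31 genes was −0.13 in the CRY1 line and −0.14 in the CRY2 line, and that over all tested genes was −0.01 in both. Both comparisons use the same 2 CPN-/- libraries. In bulk RNA, a smaller share of expressing cells and less RNA per cell cannot be told apart. For 16 of the 31 genes, in each comparison, these 2 libraries differed from each other by more than the size of the fold change.

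The direct comparison of the CRY1 line with the CRY2 line does not use the CPN-/- libraries in its fold changes. It called 4 of 31 genes (12.9%), beside 16.3% of all tested genes. Me3 and Got1 were higher and Gpt2 and Slc25a10 were lower in the CRY1 line. The median log2 difference over the 31 genes was 0.01. These 3 comparisons share one estimate of the spread, to which the CPN-/- libraries contribute. Fits without any 1 of the 4 CRY libraries called fewer of all genes tested in each of the 3 comparisons. The losses of calls given below for single genes are to be read beside this. A fit to the 4 CRY libraries alone called 16 of 31 genes, 8 in each direction, beside 49.7% of all genes tested in that fit.

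**Figure D1:**
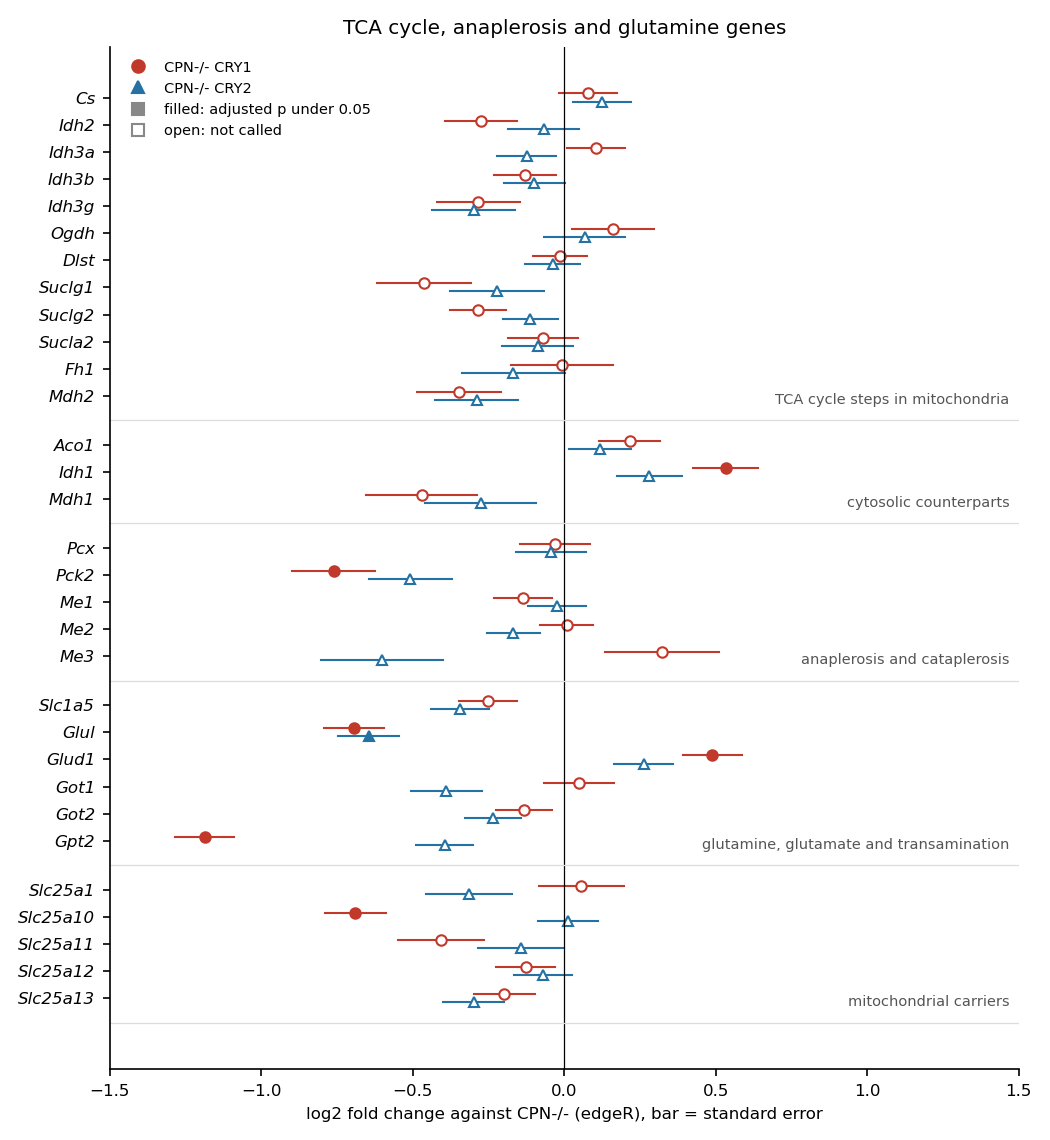
Log2 fold change against CPN-/- (x axis) for each of the 31 genes (y axis, grouped by role) in the CRY1 line (circles) and the CRY2 line (triangles), with the standard error as a bar and filled symbols for an adjusted p under 0.05. The 6 filled circles are Idh1, Pck2, Glul, Glud1, Gpt2 and Slc25a10, the only filled triangle is Glul, and all 12 genes of the mitochondrial cycle have open symbols.

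Gpt2, the mitochondrial alanine aminotransferase that exchanges the amino group between glutamate and pyruvate, had the largest decrease. The gene lies at chr8:85492576-85528902 (GRCm38.p6, plus strand). Its level was 154 and 155 CPM in CPN-/-, 71.1 and 64.5 CPM in the CRY1 line, and 116 and 119 CPM in the CRY2 line. The 3 lines did not overlap, and the CRY2 line lay between the others. Gpt2 was 2.28-fold lower in the CRY1 line than in CPN-/- (log2 change −1.19, SE 0.10, adjusted p = 5.6e-04 by edgeR). In the CRY2 line the log2 change was −0.39 (SE 0.10, edgeR adjusted p = 0.060), which missed the threshold. The difference between the CRY lines was itself called, at −0.79 (SE 0.10, edgeR adjusted p = 0.0028). The decrease in the CRY1 line was called under all 16 alternative settings, with an adjusted p of at most 0.0189. The direct difference lost its call without CRY1 replicate 2 (−0.72, adjusted p = 0.0634) and without CRY2 replicate 2 (−0.77, adjusted p = 0.0511).

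Glul, glutamine synthetase, which forms glutamine from glutamate and ammonia, was the only gene of the 31 called against CPN-/- in both CRY lines. It lies at chr1:153899929-153909723 on the plus strand. Its level was 37.1 and 40.4 CPM in CPN-/-, 24.0 and 23.8 CPM in the CRY1 line, and 24.9 and 24.6 CPM in the CRY2 line. Both CRY lines lay below both CPN-/- libraries. The log2 change was −0.70 in the CRY1 line (SE 0.10, edgeR adjusted p = 0.0045) and −0.65 in the CRY2 line (SE 0.10, edgeR adjusted p = 0.012). The direct difference between the CRY lines was −0.05 (SE 0.10, edgeR adjusted p = 0.80). Without CRY1 replicate 1 or 2 the CRY1 value was −0.70 or −0.69 and lost its call (adjusted p = 0.0673 and 0.0727). The CRY2 call was lost without any 1 of the 4 CRY libraries, with values from −0.65 to −0.63 and adjusted p between 0.0595 and 0.175, and in the fit to its own 4 libraries (adjusted p = 0.0575).

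Glud1, glutamate dehydrogenase, which converts glutamate to 2-oxoglutarate in the matrix, moved in the other direction. It lies at chr14:34310727-34345033 on the plus strand. Its level was 161 and 176 CPM in CPN-/-, 236 and 237 CPM in the CRY1 line, and 196 and 208 CPM in the CRY2 line. The 3 lines did not overlap, and Glud1 was 1.40-fold higher in the CRY1 line than in CPN-/- (log2 change 0.49, SE 0.10, edgeR adjusted p = 0.014). In the CRY2 line the log2 change was 0.26 (edgeR adjusted p = 0.17), and between the CRY lines it was 0.23 (edgeR adjusted p = 0.17). The call was lost without any 1 of the 4 CRY libraries (log2 change between 0.49 and 0.50, adjusted p between 0.0532 and 0.132) and in the fit to the 4 libraries of the comparison (0.49, adjusted p = 0.0544).

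Because Glul makes glutamine from glutamate and Glud1 removes glutamate, their ratio was also taken within each library, as counts per kilobase of transcript. The Glul to Glud1 ratio was 0.280 and 0.279 in CPN-/-, 0.124 and 0.122 in the CRY1 line, and 0.154 and 0.144 in the CRY2 line. The 2 libraries of each line were close to each other, and the lines did not overlap. The ratio is a description of genes already called and was not tested. The flux of glutamine was not measured here.

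Got1, the cytosolic aspartate aminotransferase of the malate-aspartate shuttle, differed between the CRY lines. It lies at chr19:43499752-43524605 on the minus strand. Its level was 75.1 and 91.5 CPM in CPN-/-, 85.0 and 87.2 CPM in the CRY1 line, and 62.8 and 64.4 CPM in the CRY2 line. The CRY1 libraries lay within the CPN-/- range, and the CRY2 libraries lay below both other lines. The direct log2 difference was 0.44 (SE 0.12, edgeR adjusted p = 0.047). Against CPN-/- it was 0.05 in the CRY1 line (edgeR adjusted p = 0.78) and −0.39 in the CRY2 line (edgeR adjusted p = 0.11). The 473 tested genes of chromosome 19 had a median log2 difference of 0.46 between the CRY lines, close to the value of Got1, and the part of this shift in the result was not tested. Against CPN-/- the chromosome medians were 0.31 in the CRY1 line and −0.17 in the CRY2 line, both above the values of Got1. Pcx, on the same chromosome, had a direct log2 difference of 0.01. The call was lost without any 1 of the 4 CRY libraries, with values from 0.42 to 0.46 and adjusted p between 0.235 and 0.285, and with upper-quartile factors (0.42, adjusted p = 0.0610).

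Got2, the mitochondrial aspartate aminotransferase, was not called in any comparison. Its level was 268 and 283 CPM in CPN-/-, 248 and 255 CPM in the CRY1 line, and 230 and 237 CPM in the CRY2 line, with a direct log2 difference of 0.10 (SE 0.09, edgeR adjusted p = 0.52). The Got1 to Got2 ratio, per kilobase, was 0.345 and 0.397 in CPN-/-, 0.422 and 0.421 in the CRY1 line, and 0.335 and 0.334 in the CRY2 line. Slc1a5, a plasma membrane transporter that imports glutamine, was between 63.4 and 86.4 CPM in every library. Its log2 change was −0.25 in the CRY1 line (edgeR adjusted p = 0.098) and −0.34 in the CRY2 line (edgeR adjusted p = 0.092), and neither passed the test.

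**Figure D2:**
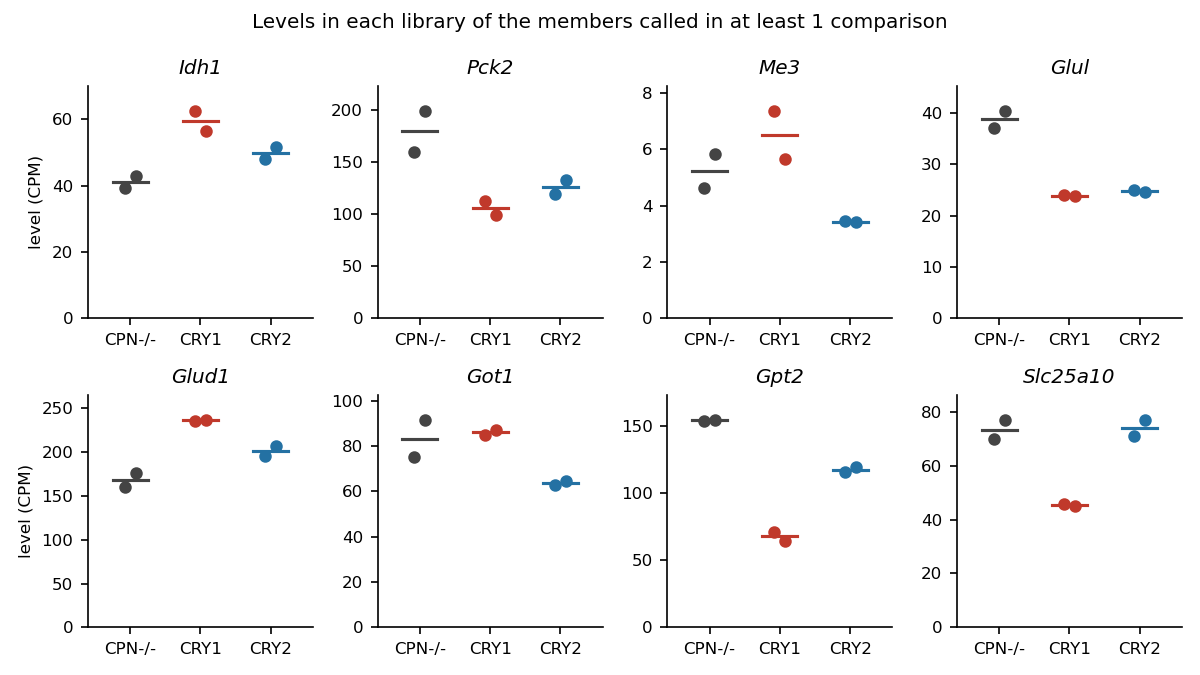
Level in CPM (y axis, from 0) of the 8 genes called in at least 1 of the 3 comparisons, with 1 point per library and a line at the mean of the 2 libraries of each cell line (x axis). Gpt2 falls from 154 and 155 CPM in CPN-/- to 71.1 and 64.5 in the CRY1 line with the CRY2 line between, Glul is low in both CRY lines, and Slc25a10 is low in the CRY1 line alone.

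The E-box CACGTG, the palindromic motif bound by the CLOCK and BMAL1 proteins that CRY represses, was searched in the 250 bases upstream of the annotated starts in the RefSeq promoter table (GRCm38.p6). Of the 31 genes, 28 had an entry, with 36 windows in all, and Idh3a, Me2 and Slc1a5 had none. The letters occurred in windows of 4 of the 28 genes (14.3%), Ogdh, Pcx, Slc25a1 and Slc25a13, beside 6.86% of all 27025 genes in the table and 9.80% of the 10411 tested genes in it. The 9 windows of the called members held no match. The windows of the 3 genes with the smallest adjusted p, all without a match, and of 2 members with one are printed so that both can be compared. They read 5′ to 3′ on the strand of the gene, and capitals mark CACGTG.

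Gpt2 (chr8:85492326-85492575, plus strand): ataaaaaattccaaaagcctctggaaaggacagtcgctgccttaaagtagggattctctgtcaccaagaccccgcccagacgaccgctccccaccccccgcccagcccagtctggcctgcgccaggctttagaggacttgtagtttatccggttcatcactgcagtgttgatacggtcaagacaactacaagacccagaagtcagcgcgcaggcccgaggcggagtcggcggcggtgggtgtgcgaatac

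Glul (chr1:153899679-153899928, plus strand): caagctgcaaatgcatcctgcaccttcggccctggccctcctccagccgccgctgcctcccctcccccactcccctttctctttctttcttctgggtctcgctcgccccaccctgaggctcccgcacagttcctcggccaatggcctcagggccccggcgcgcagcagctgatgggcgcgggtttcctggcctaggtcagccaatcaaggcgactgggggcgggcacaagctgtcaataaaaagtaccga

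Slc25a10 (chr11:120491587-120491836, plus strand): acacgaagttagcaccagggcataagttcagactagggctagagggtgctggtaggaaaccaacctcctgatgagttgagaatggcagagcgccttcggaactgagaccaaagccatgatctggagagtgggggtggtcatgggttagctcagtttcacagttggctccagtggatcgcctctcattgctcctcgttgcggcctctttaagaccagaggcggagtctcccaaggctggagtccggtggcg

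Slc25a1 (chr16:17928220-17928469, minus strand): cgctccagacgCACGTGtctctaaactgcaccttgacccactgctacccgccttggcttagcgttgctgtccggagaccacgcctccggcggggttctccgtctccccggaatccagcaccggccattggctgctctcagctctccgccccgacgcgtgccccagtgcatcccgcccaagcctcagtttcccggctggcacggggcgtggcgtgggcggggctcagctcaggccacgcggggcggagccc

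Pcx (chr19:4510222-4510471, plus strand): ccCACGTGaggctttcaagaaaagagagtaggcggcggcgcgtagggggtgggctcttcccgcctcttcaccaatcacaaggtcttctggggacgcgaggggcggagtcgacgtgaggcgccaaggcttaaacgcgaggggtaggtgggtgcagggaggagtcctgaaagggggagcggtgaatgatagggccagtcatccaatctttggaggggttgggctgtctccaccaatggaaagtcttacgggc

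In Slc25a1 the first base of the match lay at position −239 from the start, and in Pcx at −248. The level of Pcx, pyruvate carboxylase, which makes oxaloacetate from pyruvate, was 90.0 and 76.3 CPM in CPN-/-, 85.9 and 77.1 CPM in the CRY1 line, and 80.9 and 80.7 CPM in the CRY2 line. The lines overlapped, and the log2 changes were −0.03, −0.04 and 0.01 in the 3 comparisons, with an SE of 0.12 in each. A match or its absence describes only these letters in these windows, and binding of the factors was not measured here.

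The 12 genes of the mitochondrial cycle had no call in any of the 3 comparisons in the edgeR fit to all 6 libraries. At an unadjusted p under 0.05 there were 3 in the CRY1 line against CPN-/-, 0 in the CRY2 line against CPN-/- and 0 between the CRY lines, and DESeq2 called 1, 0 and 0. Over all tested genes, 40.3%, 24.4% and 30.8% had an unadjusted p under 0.05 in these comparisons. Other edgeR fits called some of the 12. The fit to the 4 CRY libraries called 5 between the CRY lines (Fh1, Idh2, Idh3a, Suclg1 and Suclg2), beside 49.7% of all genes tested. Removing the trend with transcript length gave 2, 0 and 3, beside 43.3%, 19.8% and 37.3% of all genes tested. Fits without 1 of the CPN-/- libraries also called some of the 12. Those fits called more of all genes tested than the fit to all 6 libraries did, in each comparison. The log2 changes ranged from −0.46 (Suclg1) to 0.16 (Ogdh) in the CRY1 line, and from −0.30 (Idh3g) to 0.13 (Cs) in the CRY2 line. Between the CRY lines they ranged from −0.24 (Suclg1) to 0.23 (Idh3a). Their standard errors were between 0.09 and 0.17. The 12 genes together took between 0.238% and 0.269% of the counts of a library, and the highest share was in CPN-/- replicate 2.

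Cs, citrate synthase, the entry step of the cycle, had the highest CPM of these genes before division by transcript length. It was at 657 and 620 CPM in CPN-/-, 671 and 677 CPM in the CRY1 line, and 692 and 702 CPM in the CRY2 line. Its log2 change was 0.08 (SE 0.10) in the CRY1 line and 0.13 (SE 0.10) in the CRY2 line, with edgeR adjusted p of 0.57 and 0.43. Suclg1, the alpha subunit shared by both succinyl-CoA ligases, had the lowest log2 change of the 12 in the CRY1 line. Its level was 92.2 and 126 CPM in CPN-/-, 81.4 and 76.9 CPM in the CRY1 line, and 89.0 and 97.9 CPM in the CRY2 line. The 2 CPN-/- libraries were wide apart, and the CRY2 line overlapped them. The log2 change in the CRY1 line was −0.46 (SE 0.16, edgeR adjusted p = 0.071).

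Suclg2, the subunit of the GTP-forming ligase, had a log2 change of −0.29 (SE 0.09, edgeR adjusted p = 0.062) in the CRY1 line, and Sucla2, the subunit of the ATP-forming ligase, had −0.07 (SE 0.12). Mdh2, mitochondrial malate dehydrogenase, was at 360 and 468 CPM in CPN-/-, 329 and 322 CPM in the CRY1 line, and 329 and 348 CPM in the CRY2 line. All 4 CRY libraries lay below both CPN-/- libraries, and the log2 changes of −0.35 and −0.29 (SE 0.14 each) had edgeR adjusted p of 0.11 and 0.25. The 3 subunit genes of the NAD-dependent isocitrate dehydrogenase, Idh3a, Idh3b and Idh3g, had log2 changes of 0.10, −0.13 and −0.28 in the CRY1 line and of −0.12, −0.10 and −0.30 in the CRY2 line. Ogdh and Dlst, subunits of the 2-oxoglutarate dehydrogenase complex, and Fh1, fumarase, had values between −0.17 and 0.16 in both comparisons.

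Ogdhl, a homolog of Ogdh that was listed separately, was at 5.78 and 5.41 CPM in CPN-/-, 23.2 and 21.6 CPM in the CRY1 line, and 3.93 and 2.89 CPM in the CRY2 line. It was higher in the CRY1 line than in CPN-/- (log2 change 2.00, SE 0.16, edgeR adjusted p = 5.5e-04), and its value in the CRY2 line was −0.72 (SE 0.17, edgeR adjusted p = 0.064). The direct difference was 2.72 (SE 0.17, edgeR adjusted p = 3.4e-04). The first and the last of these were called under all 16 alternatives. The 4 succinate dehydrogenase subunit genes and Dld had no call.

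Of the cytosolic counterparts, Idh1 was called. Idh1 encodes the cytosolic NADP-dependent isocitrate dehydrogenase and lies at chr1:65158616-65186479 on the minus strand. Its level was 39.2 and 43.0 CPM in CPN-/-, 62.5 and 56.4 CPM in the CRY1 line, and 48.2 and 51.7 CPM in the CRY2 line. The 3 lines did not overlap. Idh1 was 1.45-fold higher in the CRY1 line than in CPN-/- (log2 change 0.53, SE 0.11, edgeR adjusted p = 0.015), and the log2 change in the CRY2 line was 0.28 (edgeR adjusted p = 0.18). The direct difference was 0.25 (edgeR adjusted p = 0.16). The call was lost without CRY1 replicate 1 (0.46, adjusted p = 0.146), without CRY1 replicate 2 (0.61, adjusted p = 0.0861) and in the fit to its own 4 libraries (0.53, adjusted p = 0.0512).

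Idh2, the mitochondrial NADP-dependent enzyme, was at 284 and 336 CPM in CPN-/-, 267 and 245 CPM in the CRY1 line, and 286 and 306 CPM in the CRY2 line. It was not called, with log2 changes of −0.27 (SE 0.12, edgeR adjusted p = 0.13), −0.07 (adjusted p = 0.73) and −0.21 (adjusted p = 0.29) in the 3 comparisons. The Idh1 to Idh2 ratio per kilobase was 0.105 and 0.0971 in CPN-/-, 0.177 and 0.174 in the CRY1 line, and 0.128 in both CRY2 libraries. Mdh1, cytosolic malate dehydrogenase, had the largest log2 ratio between the CPN-/- libraries of all 31 genes, with 228 and 332 CPM. Its log2 changes of −0.47 (SE 0.18, edgeR adjusted p = 0.10) and −0.28 (SE 0.18, edgeR adjusted p = 0.38) did not pass the test. Aco1, the cytosolic aconitase and iron regulatory protein, had values of 0.22 and 0.12, which did not pass either.

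**Figure D3:**
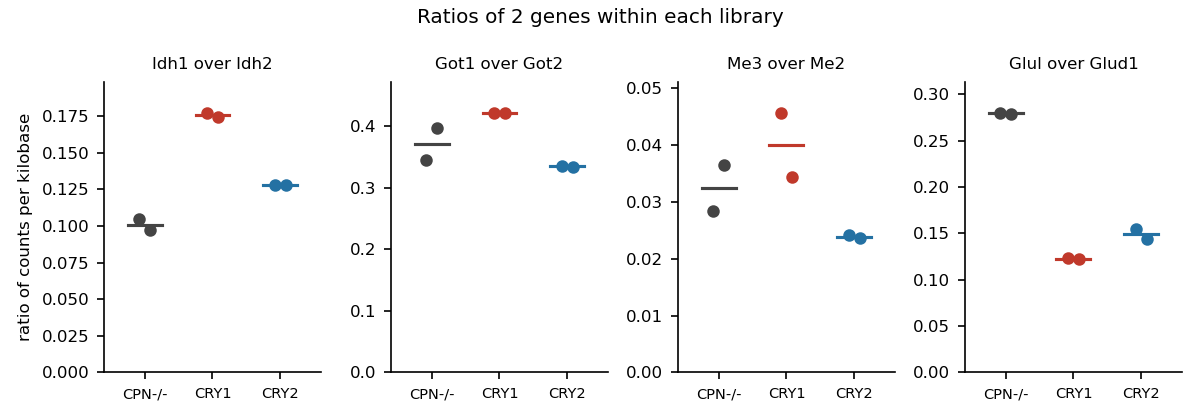
Ratio of counts per kilobase of transcript between 2 genes of the same library (y axis, from 0), with 1 point per library and a line at the mean of the 2 libraries of each cell line (x axis). Idh1 over Idh2 is highest in the CRY1 line (0.177 and 0.174), Glul over Glud1 is highest in CPN-/- (0.280 and 0.279), the CPN-/- libraries lie apart for Got1 over Got2, and for Me3 over Me2 the CRY1 libraries lie further apart (0.0457 and 0.0345) than those of CPN-/- (0.0283 and 0.0365).

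Pck2, the mitochondrial phosphoenolpyruvate carboxykinase, which withdraws oxaloacetate from the cycle, was lower in the CRY1 line. It lies at chr14:55540263-55550020 on the plus strand. Its level was 160 and 199 CPM in CPN-/-, 112 and 99.5 CPM in the CRY1 line, and 120 and 132 CPM in the CRY2 line. The 4 CRY libraries lay below both CPN-/- libraries. The log2 change was −0.76 in the CRY1 line (SE 0.14, edgeR adjusted p = 0.010) and −0.51 in the CRY2 line (SE 0.14, edgeR adjusted p = 0.084). The direct difference was −0.25 (edgeR adjusted p = 0.27). The CRY1 call was lost without CRY1 replicate 1 (−0.85, adjusted p = 0.0714) and without CRY1 replicate 2 (−0.68, adjusted p = 0.116).

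The malic enzymes convert malate to pyruvate, with Me1 in the cytosol and Me2 and Me3 in mitochondria. Me3, at chr7:89632284-89854359 on the plus strand, had the lowest level of the 31 genes, with between 92 and 266 counts per library. It was at 4.62 and 5.83 CPM in CPN-/-, 7.36 and 5.64 CPM in the CRY1 line, and 3.45 and 3.41 CPM in the CRY2 line. The CRY1 line overlapped CPN-/-, and the CRY2 line lay below both. Me3 was 1.90-fold higher in the CRY1 line than in the CRY2 line (log2 difference 0.92, SE 0.20, edgeR adjusted p = 0.022). Against CPN-/- the log2 changes were 0.32 (edgeR adjusted p = 0.24) and −0.60 (edgeR adjusted p = 0.14). The call was lost without any 1 of the 4 CRY libraries, with values from 0.72 to 1.10 and adjusted p between 0.0622 and 0.175. The exons of Me3 share 569 bases with an antisense gene, A230065N10Rik, and the strand setting of the counting is not given in the sources used here.

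Me2 was between 84.0 and 96.3 CPM in every library and Me1 between 161 and 189 CPM. Neither was called, and their log2 changes lay between −0.17 and 0.18 in the 3 comparisons. Per kilobase, Me3 was at 0.0283 and 0.0365 of the Me2 level in CPN-/-, 0.0457 and 0.0345 in the CRY1 line, and 0.0242 and 0.0236 in the CRY2 line.

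Slc25a10, the dicarboxylate carrier that exchanges malate and succinate for phosphate across the inner membrane, was lower in the CRY1 line than in both other lines. It lies at chr11:120491837-120501161 on the plus strand. Its level was 70.0 and 76.8 CPM in CPN-/-, 45.8 and 45.2 CPM in the CRY1 line, and 71.0 and 77.0 CPM in the CRY2 line. The CPN-/- and CRY2 libraries overlapped. The log2 change against CPN-/- was −0.69 in the CRY1 line (SE 0.10, edgeR adjusted p = 0.0048) and 0.01 in the CRY2 line (SE 0.10, edgeR adjusted p = 0.95), and the direct difference was −0.70 (SE 0.10, edgeR adjusted p = 0.0055). The first call was lost without CRY1 replicate 1 (−0.70, adjusted p = 0.0693) or replicate 2 (−0.68, adjusted p = 0.0760). The direct call was lost without any 1 of the 4 CRY libraries (from −0.76 to −0.65, adjusted p between 0.0536 and 0.0876).

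The other 4 carriers were not called. Slc25a1, the citrate carrier, was at 53.2 and 65.9 CPM in CPN-/-, 67.0 and 56.7 CPM in the CRY1 line, and 45.8 and 49.9 CPM in the CRY2 line. Its direct log2 difference was 0.37 (SE 0.14, edgeR adjusted p = 0.13), beside a median of 0.35 over the tested genes of its chromosome 16. Slc25a11, the 2-oxoglutarate and malate carrier, had a log2 change of −0.41 in the CRY1 line (SE 0.14, edgeR adjusted p = 0.077) and −0.14 in the CRY2 line. Slc25a12 and Slc25a13, the aspartate and glutamate carriers, had values between −0.30 and −0.07 against CPN-/-.

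Of 25 further genes of these pathways, listed for comparison, 23 passed the filter on low counts. In the CRY1 line against CPN-/-, 3 were higher and 4 lower (30.4%, beside 24.3% of all tested genes). In the CRY2 line against CPN-/-, 1 was higher and 1 lower (8.70%, beside 6.66%). Between the CRY lines 3 were higher and 4 lower in the CRY1 line (30.4%, beside 16.3%). Gls2, a glutaminase that releases glutamate from glutamine, was at 17.6 and 20.5 CPM in CPN-/- and 12.7 ± 1.87 CPM (SD, n = 2) in the CRY1 line, where it was lower (log2 change −0.58, SE 0.15, edgeR adjusted p = 0.033). Gpt, the cytosolic counterpart of Gpt2, was far less abundant, between 8.27 and 13.2 CPM in every library. It was lower in the CRY1 line than in the CRY2 line (log2 difference −0.62, SE 0.11, edgeR adjusted p = 0.014). The tested genes of its chromosome 15 had a median of −0.43 in this comparison, and the part of this shift was not tested. Both calls were lost without any 1 of the 4 CRY libraries. The values were then between −0.74 and −0.44 for Gls2 (adjusted p between 0.0775 and 0.239) and between −0.66 and −0.58 for Gpt (adjusted p between 0.103 and 0.147).

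The glutamine transporter genes Slc38a2 and Slc38a1 lie on chromosome 15, as Gpt does. The part of a shift of this chromosome in their calls was not tested. Slc38a2 was at 281 and 248 CPM in CPN-/- and at 284 and 301 CPM in the CRY1 line. In the CRY2 line it was at 378 and 377 CPM. It was the only one of the 23 genes higher in the CRY2 line than in CPN-/- (log2 change 0.51, SE 0.10, edgeR adjusted p = 0.034), a call that was lost without any 1 of the 4 CRY libraries (0.51 to 0.52, adjusted p between 0.128 and 0.275). Slc38a1, a related transporter, was called lower in both CRY lines from levels that were low throughout, at 3.21 and 1.88 CPM in CPN-/-, 0.304 and 0.389 CPM in the CRY1 line, and 0.0367 and 0 CPM in the CRY2 line. Its call in the CRY1 line was lost without CRY1 replicate 1 (log2 change −2.71, adjusted p = 0.0536).

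In levels per kilobase of transcript, the 31 genes spanned a wide range that was similar in the 3 lines. In CPN-/-, Mdh2 was highest at 284.5 CPM per kilobase, followed by Cs at 218 and Idh2 at 178, and Me3 was lowest at 1.17. Cs and Mdh2 exchanged ranks in the CRY lines, with Cs at 230 and 238 and Mdh2 at 224 and 233 CPM per kilobase in the CRY1 line and the CRY2 line. The order of these neighbours was not tested, and the 2 CPN-/- libraries of Mdh2 lay further apart (360 and 468 CPM) than its 4 CRY libraries (322 to 348 CPM). Together the 31 genes took between 0.418% and 0.494% of the counts of a library, with the CPN-/- libraries at 0.453% and 0.494% and the 4 CRY libraries between 0.418% and 0.440%.

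The 2 libraries of a line differed most in CPN-/-. Over the 31 genes, the log2 ratio of replicate 1 to replicate 2 ran from −0.55 (Mdh1) to 0.38 (Ogdh) in CPN-/-, from −0.08 (Idh3a) to 0.38 (Me3) in the CRY1 line, and from −0.15 (Idh3g) to 0.14 (Slc1a5) in the CRY2 line. Its median size was 0.19, 0.05 and 0.05. In CPN-/- the genes with short transcripts were mostly lower in replicate 1, as over all genes. With each library's trend against transcript length removed, 12 of the 31 genes were called in the CRY1 line, 8 in the CRY2 line and 12 between the CRY lines, beside 43.3%, 19.8% and 37.3% of all genes tested. With 2 libraries against 2, an exact permutation test cannot go below p = 0.33 and none was run on single genes.

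**Figure D4:**
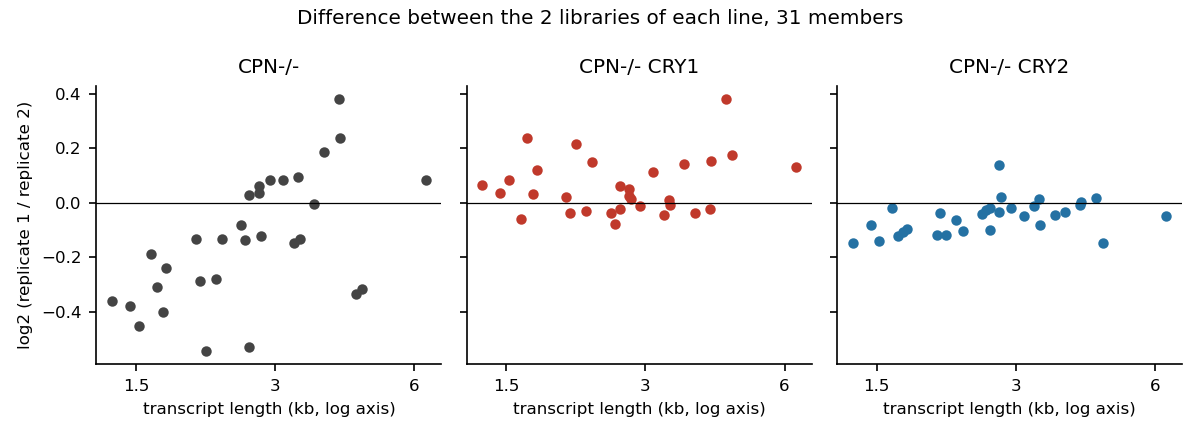
Log2 ratio of replicate 1 to replicate 2 (y axis) against the length of the longest coding transcript in kilobases (x axis, log scale) for the 31 genes in each of the 3 lines. The points spread from −0.55 to 0.38 in CPN-/-, with most short transcripts below 0, and from −0.15 to 0.14 in the CRY2 line.

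Sequence shared with other genes bears on some of the values. Transcripts of 9 of the 31 genes matched a transcript of another annotated gene over 150 bases or more with an identity of at least 95%, among them Glul, Glud1, Pck2, Me3 and Slc25a10 of the called genes. How the counting treated reads with several matches is not given in the sources used here, so that the counts of these genes are less certain. The exons of Slc25a10 overlap an antisense gene by 228 bases and those of Glul overlap Teddm2, on the other strand, by 116 bases.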

How the data were processed

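mRNA was sequenced from 3 lines with 2 libraries each. The authors mapped paired-end stranded reads to mm10 with STAR and used featureCounts to count reads per gene (tools as named in the study's methods and the submitters' processing notes), and the deposited values are raw counts per gene for 27179 genes. The gene annotation used for counting is not given in the sources used here. edgeR 4.0.16 in R 4.3.3 was fitted to all 6 libraries with the line as its only term, TMM factors, filterByExpr (minimum count 10, minimum total count 15) and the two-sided robust quasi-likelihood test. Calls used an adjusted p under 0.05 (Benjamini-Hochberg over 14069 genes). Standard errors were computed from the log2 change and the F statistic, as its absolute value over √F. CPM were scaled with TMM factors. Levels between genes were divided by the longest coding transcript in GENCODE (GRCm38.p6), known for 88.7% of tested genes, and 726 tested genes had no symbol. BLAST+ 2.17.0 searched similar transcripts.

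Full values are given for members called in at least 1 comparison and for their isoenzymes, the others by range or in short, and genes outside the 31 where they share a step with a member. Mdh2, Suclg1, Cs, Pcx, Slc25a1 and Slc38a1 were added after their values were seen. The members and lists were chosen with earlier results of these data known. The steps were tested on simulated data. Alternatives were other scaling factors, other filters, a replicate block, 4 libraries only, an adjusted p under 0.01, DESeq2 1.42.0, a loess correction of the counts for transcript length (span 0.5), and each library left out in turn. Results for some of the further pathway genes are not reported here.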

Additional observations from a re-analysis of the deposited data

Results flagged for a closer look

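For 4 genes the effects of the 2 CRY lines differed from each other by a direct test (edgeR, adjusted over all tested genes). Me3 differed by 0.92 on the log2 scale (CPN-/- CRY1 minus CPN-/- CRY2, adjusted p = 0.022) and Got1 by 0.44 (adjusted p = 0.047). Gpt2 differed by −0.79 (adjusted p = 0.0028) and Slc25a10 by −0.70 (adjusted p = 0.0055). All 4 kept their sign when any 1 library was left out, and all 4 lost their call in at least 2 of those 6 fits. Got1 lies on chromosome 19, whose tested genes had a median of 0.46 in the same comparison, and Me3 shares 569 exonic bases with an antisense gene. The part of either in the differences was not tested.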

How the results depend on the processing

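The counts of members called were 6 in CPN-/- CRY1 against CPN-/-, 1 in CPN-/- CRY2 against CPN-/- and 4 between the CRY lines. With the replicate block they were again 6, 1 and 4 and no call was lost. The differences between replicates correlated between lines at −0.08, 0.14 and −0.03. The sample labels do not say whether libraries of equal replicate number were prepared together. These correlations cannot decide it, since the CPN-/- difference also followed transcript length. The fit to the 4 libraries of a comparison called 0 in CPN-/- CRY2 and 16 between the CRY lines, beside 3.43% and 49.7% of all genes. An adjusted p under 0.01 left 3, 0 and 2, beside 8.42%, 2.58% and 6.07%. DESeq2 called 3 in CPN-/- CRY2 (beside 6.42% of all genes), and a filter of at least 1 count called 2 (beside 6.22%). Both of these shares of all genes are over 19741 genes, not 14069. Removing the length trend gave 12, 8 and 12, beside 43.3%, 19.8% and 37.3%. The members' share of calls was above that of all genes under 8, 5 and 6 of 16 alternatives and below it in the fit to all 6 libraries. Leaving out 1 library gave between 1 and 21 calls in CPN-/- CRY1, between 0 and 24 in CPN-/- CRY2 and between 0 and 16 between the CRY lines. The highest counts came without CPN-/- replicate 1, where 63.0%, 56.4% and 48.4% of all genes tested were called, and a lone library is assumed there to vary like the others. Without CPN-/- replicate 2 the counts were 16, 9 and 16, beside 44.1%, 22.1% and 47.7%. Without any 1 of the 4 CRY libraries fewer members were called in each comparison, and fewer of all genes tested were called as well. A call lost in those fits is therefore not particular to the members. The cause of these changes was not tested.

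Of 576 values for the 12 members with full values, 479 kept direction and side of the threshold, 46 gained a call, 40 lost one and 11 changed sign. Those 11 were not called in either fit. Me2 in CPN-/- CRY1 was −0.019 with upper-quartile factors and −0.0098 by library size, and ran from −0.0017 to 0.023 when 1 library was left out. Slc25a10 in CPN-/- CRY2 was −0.0029 and −0.0073 with these scalings and ran from −0.054 to 0.087. Idh2 in CPN-/- CRY2 was 0.070 with the length trend removed and ran from −0.18 to 0.065. Me1 in CPN-/- CRY2 ran from −0.095 to 0.060, and Got1 in CPN-/- CRY1 from −0.088 to 0.20.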
